A study of Mus musculus with 24 samples.

Results

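The 10 genes described here build, guard and empty the lipid droplet of fat cells: the adrenergic receptor gene Adrb3, the lipase genes Pnpla2, Lipe and Mgll, the co-activator gene Abhd5, the inhibitor gene G0s2, the perilipin genes Plin1, Plin2 and Plin4, and the droplet fusion gene Cidec. They were chosen by symbol from the 27179 genes of a table of raw counts, and all 10 were found there. Of these, 9 passed the filter on low counts. G0s2 did not. The tissue was visceral fat around the gonads of mice aged 27-33 weeks, measured as RNA sequencing of the whole tissue.

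The 24 libraries fall into 6 groups of 4: PpargFoxp3cre males, TbetFoxp3cre males, Foxp3cre control males, PpargFoxp3cre females, TbetFoxp3cre females and Foxp3cre control females. PpargFoxp3cre and TbetFoxp3cre are conditional knockouts of Pparg, the gene of a fatty-acid nuclear receptor, and of T-bet, a transcription factor encoded by Tbx21. All groups, the controls included, carry Cre recombinase driven by Foxp3, which is active in regulatory T cells, so that the deletions lie in those cells and not in the adipocytes that express the genes described here. The sample titles put 2 libraries of each group in batch 1 (replicates 1 and 3 below) and 2 in batch 2 (replicates 2 and 4). The 4 control libraries of a sex serve both knockouts, so the 2 knockout results in a sex are not independent. The labels do not say whether each library is another animal. The p-values below therefore cover the spread between these libraries, which may be technical.

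As background, triglyceride in the droplet is cut in steps. Pnpla2 (adipose triglyceride lipase) removes the first fatty acid, Lipe (hormone-sensitive lipase) the next and Mgll (monoglyceride lipase) the last. Noradrenaline acting on the receptor made from Adrb3 raises cyclic AMP, and the kinase that this activates phosphorylates Lipe and Plin1, which coats the droplets of mature adipocytes. Plin1 then releases Abhd5, the co-activator of Pnpla2, whereas G0s2 inhibits Pnpla2. Plin2 coats droplets in many cell types, Plin4 sits on small new droplets of adipocytes, and Cidec joins droplets into one large one.

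The promoters of 4 members are shown, picked by the results below. Plin4, Cidec and Mgll were called higher in Foxp3cre control males than in control females, where 27.2% of all genes were called and 13.6% called higher. Plin2 was the single member without overlap in TbetFoxp3cre against control females, where 4.97% of all genes had none. Each sequence runs 5′ to 3′ from 250 bases before the annotated start to 10 bases after it, from RefSeq on build GRCm38.p6. Capitals mark the motifs named in the next paragraph.
Plin4, chr17:56109773-56110032, minus strand: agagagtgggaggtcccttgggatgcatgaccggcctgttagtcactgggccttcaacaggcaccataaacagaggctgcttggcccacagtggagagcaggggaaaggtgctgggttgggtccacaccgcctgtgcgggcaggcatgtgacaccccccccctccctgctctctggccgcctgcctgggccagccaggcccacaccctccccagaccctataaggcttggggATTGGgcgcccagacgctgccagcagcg
Cidec, chr6:113435751-113436010, minus strand: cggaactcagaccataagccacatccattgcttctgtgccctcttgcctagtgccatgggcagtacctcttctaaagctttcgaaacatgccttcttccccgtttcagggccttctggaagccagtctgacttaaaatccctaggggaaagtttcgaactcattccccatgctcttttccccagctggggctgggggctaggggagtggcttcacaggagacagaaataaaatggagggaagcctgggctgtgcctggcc
Mgll, chr6:88724162-88724421, plus strand: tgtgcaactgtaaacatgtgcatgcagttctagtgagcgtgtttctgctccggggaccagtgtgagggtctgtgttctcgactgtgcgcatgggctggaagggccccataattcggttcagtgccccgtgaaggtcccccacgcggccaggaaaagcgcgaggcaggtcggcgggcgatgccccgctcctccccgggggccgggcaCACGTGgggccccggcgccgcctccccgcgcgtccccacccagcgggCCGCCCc
Plin2, chr4:86670050-86670309, minus strand: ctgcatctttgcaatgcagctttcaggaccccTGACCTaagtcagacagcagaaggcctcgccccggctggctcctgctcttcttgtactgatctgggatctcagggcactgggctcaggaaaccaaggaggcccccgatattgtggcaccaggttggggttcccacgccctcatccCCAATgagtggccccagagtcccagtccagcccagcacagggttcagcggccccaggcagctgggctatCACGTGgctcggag

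Promoters of 9 of the 10 members were in the RefSeq table, 12 windows in all, and Adrb3 was not matched. Motifs were searched on both strands in windows of 300 bases (250 before the start and 50 after). The E-box CACGTG stood in the windows of Lipe, Mgll and Plin2, and in 7.15% of all 32851 promoters. In Mgll it lies at -44 to -39 relative to the start, and in Plin2 it spans the start. The nuclear receptor core hexamer AGGTCA stood in Abhd5 and Plin2, and in 16.3% of all promoters. The CCAAT box CCAAT stood in Plin2 and, as ATTGG at -18 to -14, in Plin4, and in 37.4% of all promoters. The GC box GGGCGG stood in windows of Pnpla2, Lipe, Mgll, Abhd5, G0s2 and Plin2, and in 35.7% of all promoters. The window of Cidec shown above held none of these. The DR1 element, 2 such hexamers in tandem with 1 base between them and the form of site that receptors of the Pparg family bind, is in 0.0396% of all promoters and in no member's window. These matches describe letters in a window and do not show binding.

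All 9 tested members were among the more abundant transcripts of the tissue. On the authors' log2 FPKM scale, which is per length of transcript, Cidec had the highest mean level of the 9, 10.69 ± 0.62 (SD over 24 libraries), rank 21 of 15764 genes. Plin1 followed at 9.37 ± 0.58 and Pnpla2 at 9.22 ± 0.44. Lipe averaged 8.91 ± 0.39, Plin4 8.82 ± 1.43 and Mgll 8.04 ± 0.53 log2 FPKM. Plin2 was at 7.87 ± 0.43, Adrb3 at 7.64 ± 0.51 and Abhd5, the lowest of the 9, at 5.27 ± 0.42 log2 FPKM, rank 1919. Plin4 thus varied most between libraries. G0s2 had 0 to 4 counts per library and 20 counts in all 24 libraries together, with 13 libraries at 0. A count of 0 allows at most 0.0967 to 0.317 CPM (counts scaled by library total) in those 13 libraries, taking 3 counts as the limit, which covers counting error only. G0s2 was therefore not tested. Why a gene known to be active in fat is near 0 in this table was not tested. Its annotated exons share 0 bases with Lamb3, the gene on the opposite strand within which it lies.

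**Figure D1:**
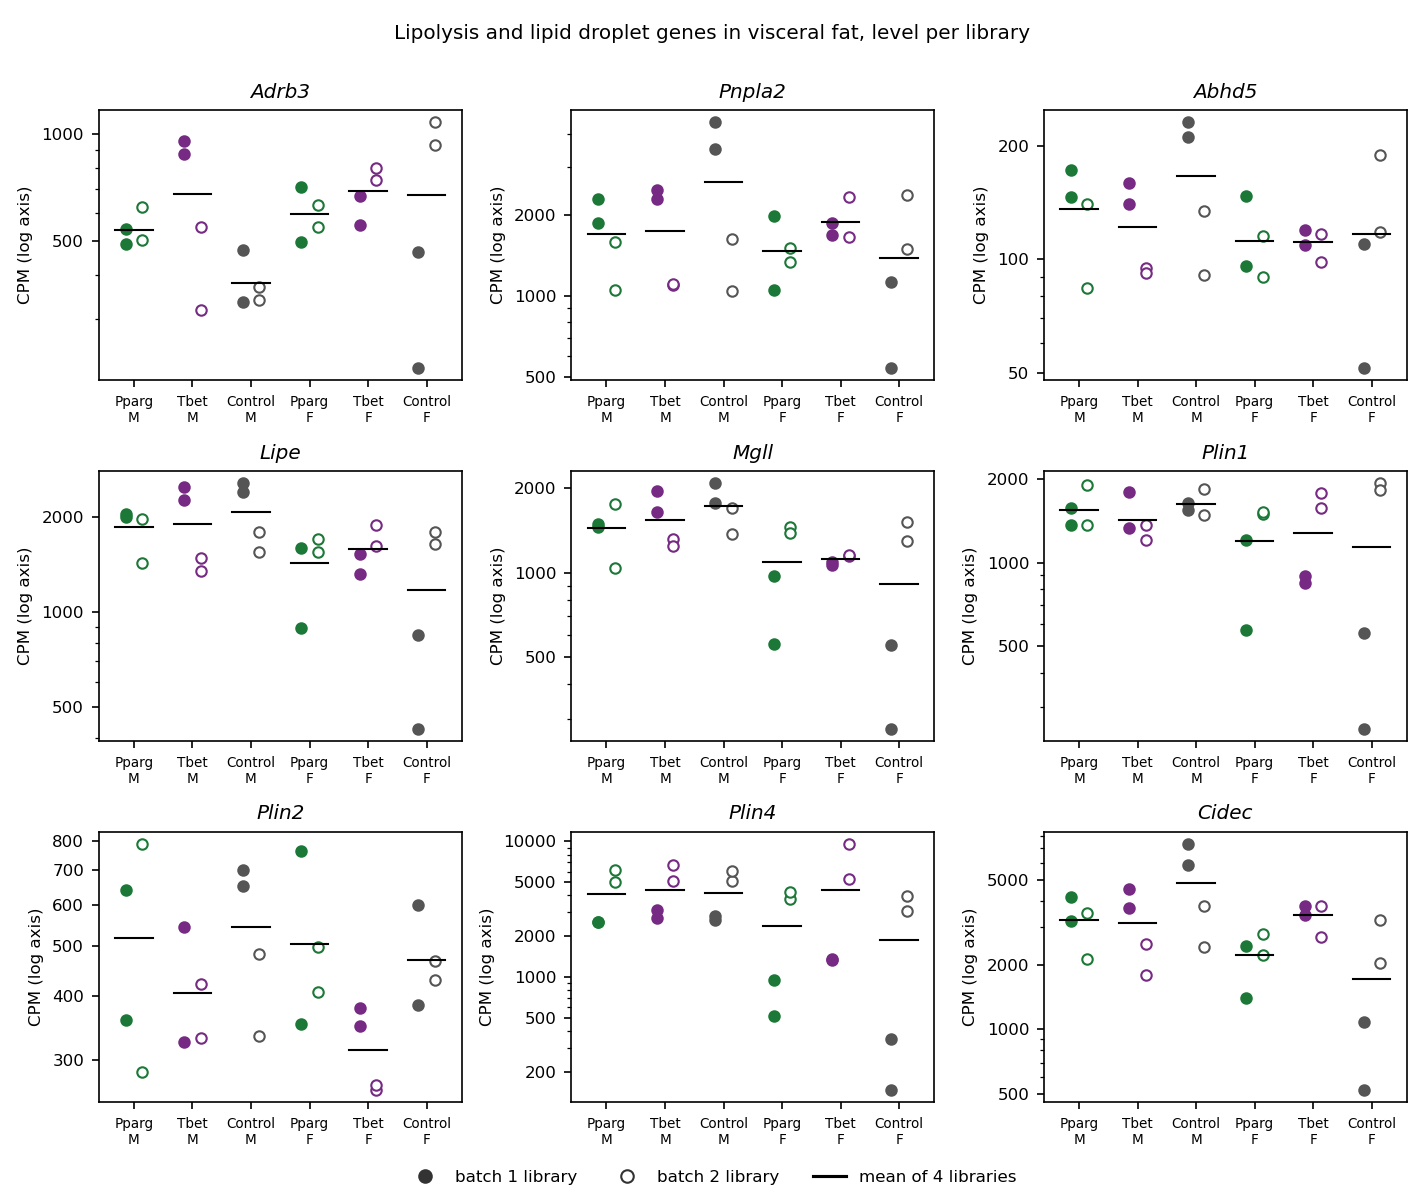
Level of each of the 9 tested lipolysis and droplet genes in every library, as CPM on a log axis, by genotype and sex. Points are libraries, marked by batch, and bars are group means of 4. Plin4 spans the widest range, from 146 CPM in a control female library to 9533 CPM in a TbetFoxp3cre female library, and its batch 2 libraries lie above its batch 1 libraries in all 6 groups.

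Library totals ranged from 8345575 to 31022845 counts. All 10 mature adipocyte markers were detected in every group, and their summed level ran from 9670 to 59930 CPM over the libraries. Pparg itself, which adipocytes express, had a median of 248 CPM in PpargFoxp3cre males against 254 CPM in control males, and of 235 CPM in PpargFoxp3cre females against 207 CPM in control females. Tbx21 had at most 82 counts in any library. Whole fat therefore does not check a deletion in regulatory T cells. Foxp3cre control female replicate 1 stood apart: it was the lowest of all 24 libraries in 8 of the 9 tested members, all but Plin2, and its members averaged -1.91 log2 units relative to their 24-library means. It also had the highest sum of 6 epithelial markers, 789 CPM, and its source name gives another batch than its title. Control female replicate 3 was under the 24-library mean in 8 of 9 members, at -0.88 on average. In both libraries the adipocyte markers were low too, at -1.75 and -0.67 log2 units on average. Epithelial markers summed to over 100 CPM in 8 libraries, 2 of PpargFoxp3cre males, 2 of TbetFoxp3cre males, 1 of control males, 2 of PpargFoxp3cre females and 1 of control females.

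**Figure D2:**
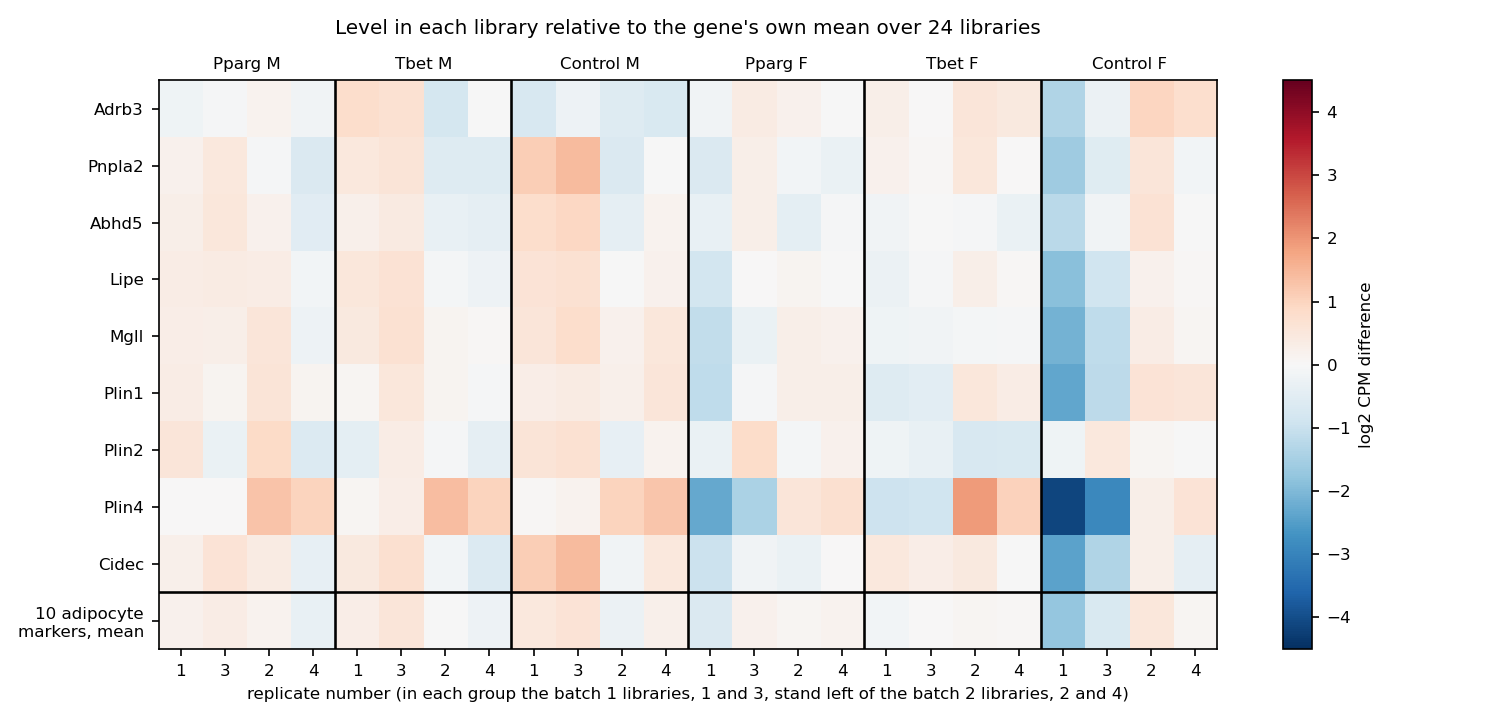
Heat map of the 9 tested members (rows) over the 24 libraries (columns), coloured by the log2 CPM of the member minus its mean over all libraries. Control female replicate 1 is low in 8 of the 9 members, and the row of Plin4 splits by batch.

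Adrb3, the receptor through which sympathetic nerves start lipolysis, was the member with the most ordered levels in males. PpargFoxp3cre males had 489, 622, 539 and 501 CPM, TbetFoxp3cre males 956, 319, 879 and 549 CPM, and control males 335, 371, 471 and 341 CPM. Every PpargFoxp3cre male library was above every control male library, while the TbetFoxp3cre males overlapped the controls through replicate 2. PpargFoxp3cre females had 496, 632, 708 and 545 CPM, TbetFoxp3cre females 668, 802, 554 and 744 CPM, and control females 219, 1080, 465 and 932 CPM. The control females enclosed all values of both female knockouts. In the order of group means, TbetFoxp3cre females were highest at 692 ± 107 CPM and control males lowest at 379 ± 63.0 CPM (SD, n = 4 each). Only the last neighbours in that order, PpargFoxp3cre males at 538 ± 60.3 CPM and control males, did not overlap.

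The first lipase gene, Pnpla2, averaged 1696 ± 522 CPM in PpargFoxp3cre males, 1738 ± 739 CPM in TbetFoxp3cre males and 2648 ± 1577 CPM in control males. In females it averaged 1469 ± 388 CPM in PpargFoxp3cre, 1884 ± 315 CPM in TbetFoxp3cre and 1382 ± 769 CPM in controls (SD, n = 4 each). The control males split by batch, with 1043 and 1628 CPM in batch 2 and 3515 and 4408 CPM in batch 1. Lipe, the next lipase gene, was steadier, at 1865 ± 290 CPM in PpargFoxp3cre males, 1901 ± 565 CPM in TbetFoxp3cre males and 2082 ± 481 CPM in control males. In females Lipe averaged 1437 ± 370 CPM in PpargFoxp3cre, 1590 ± 234 CPM in TbetFoxp3cre and 1178 ± 653 CPM in controls. Neighbouring groups in the order of means overlapped for both genes.

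Mgll, the gene of the last lipase, had 1493, 1766, 1462 and 1042 CPM in PpargFoxp3cre males, 1652, 1317, 1952 and 1242 CPM in TbetFoxp3cre males and 1779, 1371, 2087 and 1707 CPM in control males. In females it had 556, 1452, 975 and 1386 CPM in PpargFoxp3cre, 1067, 1146, 1090 and 1160 CPM in TbetFoxp3cre and 277, 1518, 552 and 1295 CPM in controls. The 4 TbetFoxp3cre female values lay within 100 CPM of each other, and the batch 1 libraries of the PpargFoxp3cre and control females were the 4 lowest of all 24. Abhd5, the co-activator of Pnpla2, averaged 136 ± 37.2 CPM in PpargFoxp3cre males, 122 ± 33.7 CPM in TbetFoxp3cre males and 167 ± 65.4 CPM in control males. Its female averages were 112 ± 25.7 CPM in PpargFoxp3cre, 111 ± 9.44 CPM in TbetFoxp3cre and 117 ± 56.4 CPM in controls. No pair of neighbours in the order of Abhd5 means was apart. The Abhd5 to Pnpla2 ratio within a library, as the mean log2 difference in CPM, was -3.63 ± 0.10 in PpargFoxp3cre males, -3.77 ± 0.25 in TbetFoxp3cre males and -3.86 ± 0.36 in control males. It was -3.70 ± 0.27 in PpargFoxp3cre females, -4.07 ± 0.21 in TbetFoxp3cre females and -3.51 ± 0.16 in control females. The ratio was lowest in TbetFoxp3cre females, on CPM as on log2 FPKM. It was highest in control females on CPM and in PpargFoxp3cre males on log2 FPKM.

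Among the droplet coat genes, Plin1 averaged 1551 ± 255 CPM in PpargFoxp3cre males, 1424 ± 257 CPM in TbetFoxp3cre males and 1626 ± 154 CPM in control males. In control females it had 250, 1935, 555 and 1830 CPM, the widest range of any group for this gene. PpargFoxp3cre females averaged 1201 ± 444 CPM and TbetFoxp3cre females 1277 ± 481 CPM. Plin2 had the smallest ratio of the highest to the lowest library of the 9 members, 3.0-fold. TbetFoxp3cre females had 378, 262, 349 and 268 CPM of Plin2, PpargFoxp3cre females 352, 406, 764 and 498 CPM and control females 384, 466, 599 and 429 CPM. The TbetFoxp3cre females were all under the control females, though the gap between the nearest libraries was narrow. In males Plin2 averaged 518 ± 236 CPM in PpargFoxp3cre, 405 ± 103 CPM in TbetFoxp3cre and 542 ± 168 CPM in controls.

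Plin4, which coats small new droplets, ranged 65.1-fold over the 24 libraries. PpargFoxp3cre males had 2558, 6175, 2559 and 5059 CPM, TbetFoxp3cre males 2707, 6676, 3129 and 5106 CPM, and control males 2641, 5101, 2829 and 6048 CPM. PpargFoxp3cre females had 517, 3765, 952 and 4239 CPM, TbetFoxp3cre females 1334, 9533, 1365 and 5306 CPM, and control females 146, 3051, 346 and 3932 CPM. In each of the 6 groups both batch 2 libraries were above both batch 1 libraries. The ratio of the batch 2 mean to the batch 1 mean was 2.02 to 2.20 in the 3 male groups, and in females it was 5.45 in PpargFoxp3cre, 5.50 in TbetFoxp3cre and 14.2 in controls. Cidec, the droplet fusion gene, had 3221, 3512, 4165 and 2137 CPM in PpargFoxp3cre males, 3679, 2509, 4529 and 1800 CPM in TbetFoxp3cre males and 5839, 2438, 7321 and 3787 CPM in control males. In females it had 1406, 2221, 2442 and 2792 CPM in PpargFoxp3cre, 3786, 3758, 3409 and 2714 CPM in TbetFoxp3cre and 521, 3261, 1081 and 2046 CPM in controls. The highest Cidec values were those of the batch 1 control males, and the lowest those of the batch 1 control females.

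Each knockout was set against the controls of its own sex, which asks whether loss of Pparg or T-bet in regulatory T cells goes with other levels of these genes in fat. Of the 9 tested members, 0 passed the threshold in any of the 4 comparisons, by edgeR's quasi-likelihood test with a Benjamini-Hochberg adjusted p under 0.05 over all 17824 genes tested. The share of all genes that passed was 0% in PpargFoxp3cre against control males, 0.00561% in TbetFoxp3cre against control males, 0.0168% in PpargFoxp3cre against control females and 1.22% in TbetFoxp3cre against control females. At an unadjusted p under 0.05 there were 0 members in PpargFoxp3cre males, 1 in TbetFoxp3cre males, 0 in PpargFoxp3cre females and 2 in TbetFoxp3cre females, against 2.55%, 4.38%, 11.9% and 17.3% of all genes in the same order. The other tools run, DESeq2, voom (limma with quality weights on the counts) and limma on the authors' log2 FPKM, also called 0 members in the first 3 of these comparisons. In TbetFoxp3cre females DESeq2 called Plin4 higher (3.04% of all genes were called higher), limma on log2 FPKM called Plin4 and Cidec higher (1.29% of all genes), and voom called 0.

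In males, the knockouts showed Adrb3 as the member with the largest positive difference. The log2 fold change of Adrb3 was 0.50 in PpargFoxp3cre males against control males (SE 0.36, 95% interval -0.26 to 1.26). Its adjusted p in edgeR's test was 1, although the libraries of the PpargFoxp3cre males did not overlap those of the controls. Of all genes 1.52% were without overlap in that comparison. In TbetFoxp3cre males against control males the log2 fold change of Adrb3 was 0.85 (SE 0.36, 95% interval 0.08 to 1.62, edgeR adjusted p 1), with 1.20 in batch 1 alone and 0.30 in batch 2 alone. Of the 9 members 0 were without overlap there, against 1.51% of all genes. Most other members had negative values, none past the test. Pnpla2 had -0.59 in PpargFoxp3cre males and -0.58 in TbetFoxp3cre males, and Cidec -0.56 and -0.63. The median over the 9 members was -0.16 in each, with 1 member of 9 positive in PpargFoxp3cre males and 2 of 9 in TbetFoxp3cre males, against medians of -0.00 and -0.01 over all genes. Of all genes 48.9% and 48.5% were positive.

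In females, the largest differences were those of Plin4 and Cidec in TbetFoxp3cre against control females. Plin4 averaged 4384 ± 3906 CPM in TbetFoxp3cre females and 1869 ± 1910 CPM in control females (SD, n = 4 each). Its log2 fold change was 1.51 (SE 0.47, 95% interval 0.51 to 2.51), with an edgeR adjusted p of 0.118. Cidec averaged 3417 ± 499 CPM in TbetFoxp3cre females and 1728 ± 1201 CPM in control females, with a log2 fold change of 0.95 (SE 0.45, 95% interval 0.01 to 1.90, edgeR adjusted p 0.275). In batch 1 alone both passed the edgeR test, Plin4 at 2.46 (adjusted p 0.0183) and Cidec at 2.18 (adjusted p 0.0243), where 3.08% of all genes were called higher. In batch 2 alone the values were 1.09 for Plin4 (adjusted p 0.175) and 0.29 for Cidec, and neither passed. Batch 1 holds the 2 low control female libraries. Without them, in a fit added after seeing the data, Plin4 had 0.71 (edgeR adjusted p 0.434) and Cidec 0.13 (adjusted p 0.913). With the mean level of the adipocyte markers as a covariate, a fit added after seeing the data, both were called higher, Plin4 at 1.21 (adjusted p 0.00371) and Cidec at 0.71 (adjusted p 0.00787), where 1.32% of all genes were called higher.

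Plin2 went the other way in TbetFoxp3cre females. It averaged 314 ± 57.8 CPM, against 469 ± 92.7 CPM in control females, which gives -0.59 on the log2 scale (SE 0.29, 95% interval -1.21 to 0.02, edgeR adjusted p 0.303). It was the single member without overlap in that comparison, where 4.97% of all genes had none, and it was lower in each batch taken alone, at -0.43 in batch 1 and -0.75 in batch 2. The other 6 members lay between -0.12 (Abhd5) and 0.45 (Lipe). In PpargFoxp3cre against control females the 9 members ran from -0.15 (Adrb3) to 0.62 (Plin4, SE 0.47, edgeR adjusted p 0.626), and 0 were without overlap, against 2.44% of all genes. Of the 9 members 7 were positive in each female knockout, with medians of 0.21 in PpargFoxp3cre and 0.37 in TbetFoxp3cre females, against -0.02 and -0.04 over all genes. In PpargFoxp3cre females all 9 were positive within batch 1 and 3 within batch 2, and in TbetFoxp3cre females 8 within batch 1 and 4 within batch 2.

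**Figure D3:**
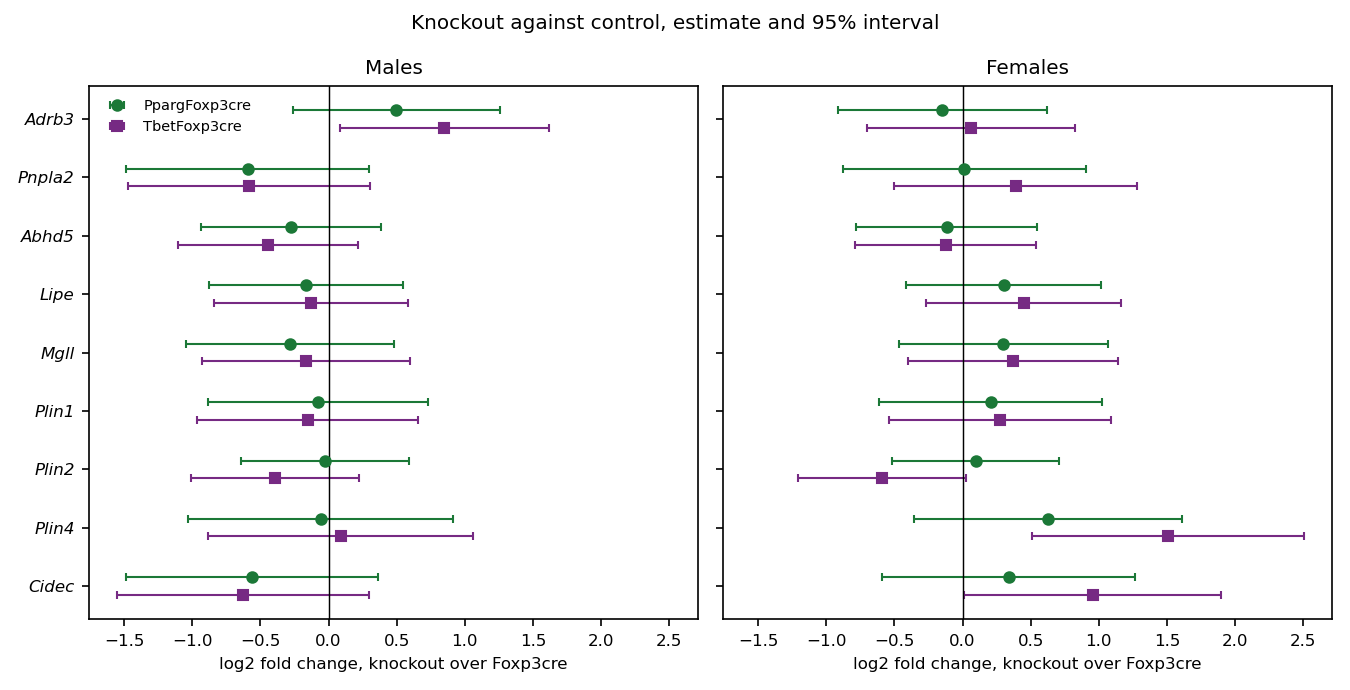
Log2 fold change of each tested member in each knockout against Foxp3cre controls of the same sex, with 95% intervals from edgeR (24 libraries, batch as a covariate). Plin4 in TbetFoxp3cre females, at 1.51, lies furthest from 0, and no member passes an adjusted p of 0.05.

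The effects of a knockout in males and in females were compared directly, as the male effect minus the female effect. No member passed the edgeR test for either knockout, where 0% of all genes passed for PpargFoxp3cre and 0.00561% for TbetFoxp3cre. At an unadjusted p under 0.05 there were 0 members for PpargFoxp3cre and 2 for TbetFoxp3cre, against 6.14% and 11.5% of all genes, and DESeq2, voom and limma on log2 FPKM called 0. The 2 members were the same pair that stood out in TbetFoxp3cre females. Cidec had a difference of effects of -1.58 (SE 0.63, 95% interval -2.90 to -0.26, edgeR adjusted p 0.368), and Plin4 one of -1.42 (SE 0.66, 95% interval -2.81 to -0.03, adjusted p 0.417). Without both low control female libraries these were -0.75 for Cidec and -0.62 for Plin4. With a batch term in each group, a fit added after seeing the data, both were called by edgeR, Cidec at -1.83 (adjusted p 0.0300) and Plin4 at -1.68 (adjusted p 0.0333), where 1.66% of all genes were called. For PpargFoxp3cre the largest difference of effects was that of Cidec, at -0.90 (SE 0.62).

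TbetFoxp3cre and PpargFoxp3cre mice were also compared within each sex, which needs no control libraries. Again 0 of 9 members passed the edgeR test in males or in females, and 0% of all genes passed in each. In females 1 member was under an unadjusted p of 0.05, against 4.8% of all genes, and in males 0, against 4.24%. DESeq2, voom and limma on log2 FPKM called 0 members in each sex. The member in females was Plin2, which averaged 314 ± 57.8 CPM in TbetFoxp3cre females and 505 ± 183 CPM in PpargFoxp3cre females, a log2 fold change of -0.69 (SE 0.29, 95% interval -1.31 to -0.07, edgeR adjusted p 0.995). In males the members lay between -0.37 (Plin2) and 0.35 (Adrb3). No member was without overlap, against 1.76% of all genes in females and 1.53% in males.

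Males and females were then compared within each genotype. In Foxp3cre controls 3 of 9 members rose in males, Plin4, Cidec and Mgll, and 0 fell, by edgeR's quasi-likelihood test, where 27.2% of all genes were called and 13.6% were called higher. The 5 members under an unadjusted p of 0.05 were these 3, Lipe and Adrb3, against 39.5% of all genes. With SD and n = 4 each, Plin4 averaged 4155 ± 1686 CPM in control males and 1869 ± 1910 CPM in control females. Its log2 fold change of 1.87 (SE 0.49, 95% interval 0.83 to 2.90, edgeR adjusted p 0.00927) is 3.64-fold. Cidec averaged 4846 ± 2163 CPM in control males and 1728 ± 1201 CPM in control females, which is 1.44 on the log2 scale (SE 0.46, 95% interval 0.48 to 2.41, edgeR adjusted p 0.0253). Mgll averaged 1736 ± 294 CPM in control males and 910 ± 591 CPM in control females, or 1.03 as a log2 fold change (SE 0.37, 95% interval 0.25 to 1.81, edgeR adjusted p 0.0456). For all 3 the groups overlapped, and 0 of the 9 members were without overlap, against 15.7% of all genes.

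The other members did not pass in control males against control females. Lipe had 0.85 (SE 0.35, edgeR adjusted p 0.0739), and DESeq2 and limma on log2 FPKM called it higher. Adrb3 had the single negative value, -0.80 (SE 0.37, 95% interval -1.57 to -0.02, adjusted p 0.112), and voom called it lower. Pnpla2 had 0.78, Plin1 0.72, Abhd5 0.43 and Plin2 0.18, with adjusted p between 0.181 and 0.677. The median of the 9 was 0.78, against -0.04 over all genes, and 8 of 9 were positive, against 47.1% of all genes. All 9 were positive within batch 1 and 3 of 9 within batch 2.

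The difference between control males and females was larger in batch 1 than in batch 2. In batch 1 alone 7 of 9 members were called higher in males, all but Plin2 and Adrb3, where 16.2% of all genes were called higher. Plin4 had a log2 fold change of 3.44 in batch 1 alone (edgeR adjusted p 0.00127), against 0.68 in batch 2 alone (adjusted p 0.183). For Cidec the value was 3.0 in the batch 1 libraries (adjusted p 0.00167) and 0.23 in those of batch 2 (adjusted p 0.71), and for Mgll 2.18 (adjusted p 0.00324) and 0.13 (adjusted p 0.755). In batch 2 alone no member was called higher in control males, and Adrb3 was called lower, at -1.50 (edgeR adjusted p 0.0127), where 3.76% of all genes were called lower. Adrb3 was at 0.20 in batch 1 alone. Within batch 2 the values of Pnpla2 (-0.53), Abhd5 (-0.44), Plin1 (-0.18), Plin2 (-0.13) and Lipe (-0.035) were also negative, none of them called. A test of the difference between the batches was not run.

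Single libraries and the form of the fit changed these calls. In a fit to the 8 control libraries alone 0 members were called, with Plin4 at 2.06 (edgeR adjusted p 0.0894), and without a batch term Plin4 was at 1.15 (adjusted p 0.399). Plin4 was called higher with any 1 of the 8 control libraries left out, at 1.47 to 2.26. Cidec was not called without control male replicate 1 (1.36, edgeR adjusted p 0.0603), control male replicate 3 (1.20, adjusted p 0.0832), control female replicate 1 (1.06, adjusted p 0.0634) or control female replicate 3 (1.20, adjusted p 0.103). Mgll was not called without control male replicate 1 (0.98), replicate 3 (0.87) or replicate 4 (1.10), or without control female replicate 1 (0.70) or replicate 3 (0.86), with adjusted p of 0.0603 to 0.152. Without both low control female libraries none of the 3 was called: Plin4 had 0.97 (adjusted p 0.149), Cidec 0.56 (adjusted p 0.375) and Mgll 0.28 (adjusted p 0.598). Adrb3 was then called lower in males, at -1.52 (edgeR adjusted p 0.00412), where 6.3% of all genes were called lower. This fit was added after seeing the data. It leaves out 2 libraries picked because members, Adrb3 included, were low in them (219 and 465 CPM of Adrb3). The call is therefore partly set by that choice and is not support for a difference. Adrb3 was called lower as well without control female replicate 1 alone (-1.13, adjusted p 0.0133). Without control female replicate 2, which had high values, 6 members were called, where 29.1% of all genes were.

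Markers of cell types moved with the same comparison. The sum of the 10 adipocyte markers was 32570 to 59930 CPM in control males (median 49460) and 9670 to 48840 CPM in control females (median 29380), with no marker at 0, and 2 of the 10 markers, Lep and Cd36, were called higher in males. The 7 macrophage markers summed to 1167 to 1695 CPM in control males and 334 to 906 CPM in control females, and all 7 were called higher in males. Of other marker lists, 3 of 5 endothelial and 4 of 6 lipid-associated macrophage markers were higher in control males, and 1 of 6 stromal markers was higher and 2 lower. The mesothelial marker Wt1 (-3.15) and the thermogenic markers Ucp1 and Elovl3 were lower in control males, the muscle marker Acta1 (2.51) was higher, and 0 of 6 epithelial and 0 of 5 lymphocyte markers were called. The part of these other lists in the members' differences was not tested. With the mean adipocyte marker level as a covariate, 5 members were called, where 24.9% of all genes were: Plin4 at 1.17, Cidec at 0.77, Mgll at 0.46 and Lipe at 0.30, all higher, and Adrb3 at -1.19, lower, with edgeR adjusted p of 0.00110 to 0.0496. Without the 8 libraries with epithelial markers Plin4 had 1.89, Cidec 1.47 and Mgll 0.97, each still called, and Adrb3 -0.97 (adjusted p 0.019), called lower, where 19.8% of all genes were called. This fit leaves out control female replicate 1, at 219 CPM the lowest of all 24 libraries for Adrb3. Its Adrb3 call is therefore partly set by the loss of that library and is not separate from the leave-out results above. In whole tissue, fewer adipocytes and less of a transcript per adipocyte cannot be told apart.

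In the knockouts no member passed the test between the sexes. Whether a sex difference in a knockout differs from that in controls is the same quantity as the difference of effects given above, which no member passed. Of the 9 members 0 passed in PpargFoxp3cre males against PpargFoxp3cre females, where 8.77% of all genes were called, and 0 in TbetFoxp3cre males against TbetFoxp3cre females, where 9.31% were called (edgeR). At an unadjusted p under 0.05 there was 1 member in PpargFoxp3cre, against 26.5% of all genes, and 0 in TbetFoxp3cre, against 25.9%. The 1 member was Plin4, with 4088 ± 1824 CPM in PpargFoxp3cre males and 2368 ± 1905 CPM in PpargFoxp3cre females, a log2 fold change of 1.18 (SE 0.47, 95% interval 0.19 to 2.18, edgeR adjusted p 0.117). DESeq2 and voom called it higher, where they called 7.06% and 5.75% of all genes higher, and so did edgeR in batch 1 alone (1.78, adjusted p 0.0257, with 5.12% of all genes called higher). In batch 2 alone it was at 0.49. In PpargFoxp3cre 0 of 9 members were without overlap, against 9.06% of all genes. In TbetFoxp3cre it was 1, against 12.4%: Mgll, with 1541 ± 327 CPM in males and 1116 ± 44.5 CPM in females, a log2 fold change of 0.50 (SE 0.36, 95% interval -0.27 to 1.26, edgeR adjusted p 0.404). DESeq2, voom and limma on log2 FPKM called 0 members in TbetFoxp3cre.

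**Figure D4:**
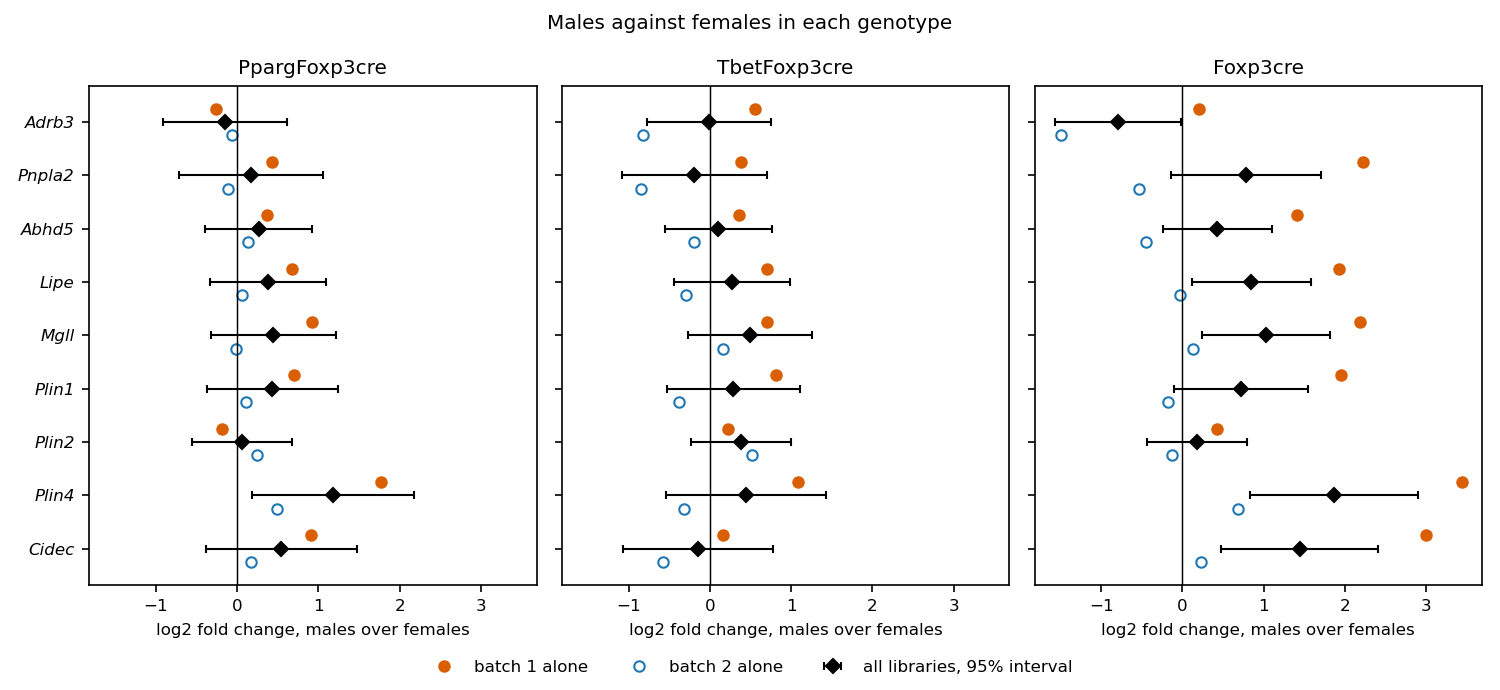
Log2 fold change of each tested member in males against females of the same genotype, with 95% intervals from edgeR (24 libraries, batch as a covariate). In Foxp3cre controls Plin4 (1.87), Cidec (1.44) and Mgll (1.03) pass an adjusted p of 0.05, and in the knockouts no member does.

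The batches differed most in Plin4 among the members. In batch 2 against batch 1, a comparison added after seeing the data, 51.7% of all genes were called and 26% were called higher. Of the 9 members 2 were called, both higher in batch 2: Plin4, with a log2 fold change of 1.96 (SE 0.29, 95% interval 1.35 to 2.57, edgeR adjusted p 8.62e-06), and Plin1, with 0.63 (SE 0.23, adjusted p 0.0271). Without both low control female libraries Plin4 was at 1.60 and still called, and Plin1 was at 0.32 (adjusted p 0.107). Plin1 also was not called without PpargFoxp3cre female replicate 1 (0.56, adjusted p 0.0503) or control female replicate 3 alone (0.55, adjusted p 0.0659), or with the batch that the source names give (0.44, adjusted p 0.162). The other 7 lay between -0.35 (Pnpla2) and 0.29 (Mgll).

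Plin4 also moved against the other coat genes of the same library. The mean log2 ratio of Plin4 to Plin1, a ratio chosen after seeing the data, was 1.30 ± 0.58 in PpargFoxp3cre males, 1.55 ± 0.75 in TbetFoxp3cre males and 1.27 ± 0.56 in control males. In females it was 0.58 ± 0.96 in PpargFoxp3cre, 1.36 ± 0.88 in TbetFoxp3cre and 0.08 ± 0.95 in controls (SD, n = 4 each). It was higher in batch 2 in every group: in control females its mean was 0.88 in batch 2 and -0.73 in batch 1, and in control males 1.75 in batch 2 and 0.78 in batch 1. The ratio of Plin2 to Plin1, which sets a coat of many cell types against that of mature adipocytes, was -1.69 ± 0.49 in PpargFoxp3cre males, -1.83 ± 0.16 in TbetFoxp3cre males and -1.64 ± 0.48 in control males. In females it was -1.22 ± 0.63 in PpargFoxp3cre, -1.96 ± 0.82 in TbetFoxp3cre and -0.85 ± 1.42 in controls. In control females its mean was -2.07 in batch 2 and 0.36 in batch 1, where batch and the 2 libraries with low adipocyte markers cannot be told apart. The 2 batch 1 control females were the libraries in which Plin2 exceeded Plin1 in CPM. The ratio of Lipe to Pnpla2 stayed between group means of -0.25 in control females and 0.18 in both male knockouts.

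**Figure D5:**
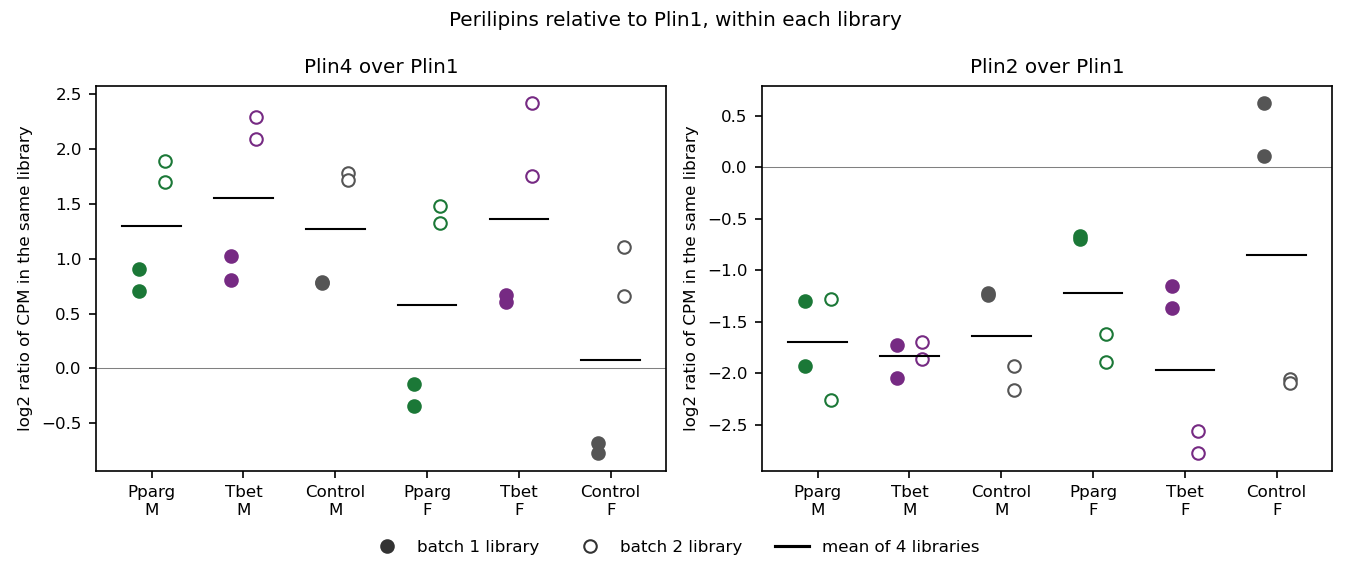
Log2 ratio of Plin4 to Plin1 and of Plin2 to Plin1 in CPM in each library, by group and batch. In all 6 groups the batch 2 libraries have the higher Plin4 to Plin1 ratio, and the Plin2 to Plin1 ratio is above 0 only in the 2 batch 1 control female libraries.

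Likeness of patterns was measured as the root mean square difference of 2 genes' log2 CPM over the 24 libraries, each with its own mean removed, among 13562 genes whose mean log2 CPM was 1 or more. The lipase genes Lipe and Mgll lay near each other: Lipe was the second gene nearest to Mgll, at 0.19, and Mgll was the fifth nearest to Lipe. Pnpla2 was not among the 100 genes nearest to Lipe, and its own nearest member was Abhd5, at 0.272. The nearest gene to Mgll was Ehd2 (0.137), to Lipe Cd1d1 (0.156), to Plin1 Ghr (0.163), to Pnpla2 1600014C10Rik (0.223), to Abhd5 Pex19 (0.185) and to Cidec Tmem120a (0.245), with Fabp4, the adipocyte fatty-acid carrier, next at 0.274. The nearest gene to Plin4 was Syne3 at 0.378, and its nearest member was Plin1 at rank 155. The measure is not scaled, so it grows with a gene's own spread, 1.42 for Plin4 and 0.779 for Cidec, the next widest. The median distance to all genes was likewise larger for Plin4, 1.47, than for Cidec, 0.851. Plin4 was furthest from any other member by this measure (0.862 to Plin1), while Plin2 and Adrb3 had the most other genes nearer than any member. The nearest gene to Plin2 was Serpinh1 (0.273) and its nearest member Abhd5 at rank 1503, and the nearest gene to Adrb3 was N4bp2l1 (0.285) and its nearest member Lipe at rank 2590. With batch means removed, Lipe and Plin1 lay nearest to each other (0.117), and the gene nearest to Plin4 was Prkar2b, a regulatory subunit of the kinase that cyclic AMP activates, at 0.269. The nearest gene then changed for 6 of the 9 members. The measure describes these libraries, which share tissue composition, batch and depth.

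The wider pathway was read from lists of genes chosen with earlier results known. Of 27 genes of lipolysis signalling, all tested, 0 were called in either knockout against controls in either sex. In control males against control females 7 were higher and 5 lower by edgeR's test. Ptger3, a prostaglandin E receptor that restrains cyclic AMP, fell in males: it averaged 27.6 ± 9.99 CPM in control males and 120 ± 42.4 CPM in control females, so that its log2 fold change was -2.15 (SE 0.34, edgeR adjusted p 0.000298). Adora1, an adenosine receptor that also restrains cyclic AMP, rose in males, with 101 ± 12.6 CPM in control males and 39.3 ± 23.8 CPM in control females (log2 fold change 1.53, SE 0.27, adjusted p 0.000690). Prkar2b rose in males too, at 993 ± 220 CPM against 315 ± 247 CPM in control females (1.87, SE 0.44, adjusted p 0.00504), as did the inhibitory G protein gene Gnai2 (0.58, adjusted p 0.000844). Prkar2b ranged from 79.8 to 533 CPM over the control female libraries. Results in each batch alone and without the 2 low control female libraries are not given for the genes of this list. In PpargFoxp3cre males against females 1 was higher (Gnai3, 0.25) and 2 lower, Prkg1, a cyclic GMP-dependent kinase (-1.63, adjusted p 0.0108), and Ptger3 (-1.37, adjusted p 0.0157). In TbetFoxp3cre males against females 0 were higher, and Prkg1 fell (-1.23, adjusted p 0.0402).

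Of 19 other lipase and droplet protein genes tested, 1 was called in a knockout against controls. Pnpla3, a relative of Pnpla2 on the droplet, fell in TbetFoxp3cre females, where 1.22% of all genes were called. It averaged 350 ± 43.7 CPM, against 1143 ± 610 CPM in control females (log2 fold change -1.62, SE 0.39, edgeR adjusted p 0.047). The libraries overlapped, at 309 to 406 CPM in TbetFoxp3cre females and 404 to 1806 CPM in control females. Results in each batch alone and by other tools are not given for it. In control males against control females 5 rose and 1 fell. The 4 with the smallest adjusted p all rose: Fitm1, which helps droplets form and is best known from muscle (1.18 ± 0.24 CPM in control males and 0.0681 ± 0.059 CPM in control females, where the lowest library was at 0, so that no fold is given), the lysosomal lipase gene Lipa (1.22, adjusted p 0.00157), and the caveola genes Cav1 (1.24, adjusted p 0.0122) and Cavin1 (1.09, adjusted p 0.0201). The other 2, named after their values were seen, were Fitm2, which rose (1.08, adjusted p 0.0271), and Pnpla3, which fell in control males to 485 ± 270 CPM, against 1143 ± 610 CPM in control females (-1.24, SE 0.39, adjusted p 0.0233). The muscle marker Acta1 was called higher in the same comparison, with 67.6 CPM in control males and 10.6 CPM in control females, and its part in Fitm1 was not tested. Lipa averaged 152 ± 42.9 CPM in control males and 65.8 ± 14.4 CPM in control females. For the genes of this list, too, results in each batch alone and without the 2 low control female libraries are not given. In PpargFoxp3cre males against females Fitm1 and Lipa (0.79, adjusted p 0.0441) rose and 0 fell, and in TbetFoxp3cre males against females Hilpda, an inhibitor of Pnpla2, rose (0.98, adjusted p 0.0355) and 0 fell. Lipa is also expressed by macrophages, whose 7 markers rose in control males against control females as given above. In PpargFoxp3cre males against females 1 of the 7 was called higher. The part of macrophages in the Lipa differences was not tested.

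In the reference annotation the exons of Lipe share 15.6% of their bases with 4732471J01Rik, those of Abhd5 16% with A730085K08Rik and those of Adrb3 24.9% with Gm45470, and those of Mgll 3.29% with Gm26588. The exons of Plin4 share 0.294% of their bases with Hdgfl2. Whether the authors counted by strand is not given in the sources used here, so reads in these stretches may belong to either gene. On GRCm38.p6 the members lie at chr8:27225776-27230845 (Adrb3), chr7:141455188-141460743 (Pnpla2), chr7:25379527-25398486 (Lipe), chr6:88724412-88828360 (Mgll), chr9:122351616-122381524 (Abhd5), chr1:193272160-193273188 (G0s2), chr7:79721164-79732904 (Plin1), chr4:86626910-86670217 (Plin2), chr17:56100587-56109948 (Plin4) and chr6:113424634-113435760 (Cidec).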

How the data were processed

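RNA sequencing counts per gene were deposited by the authors as 1 table of raw counts for 27179 genes, and the submitters' processing notes name featureCounts and the builds GRCm38 and mm10. The authors also deposited log2 FPKM values for 15764 genes in each of 24 libraries, with an offset and scaling that are not stated. The aligner, strand setting and tool versions were not given in the sources used here. RNA came from total visceral fat (RNeasy Lipid Tissue Mini Kit) and libraries from a TruSeq RNA kit, per the labels. Groups follow the labels, and batch follows the titles. For 1 library the source name gives the other batch, which was tried as an alternative.

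Counts were tested in R 4.3.3 with edgeR 4.0.16: filterByExpr by group, TMM scaling and the robust quasi-likelihood test. One model held all 24 libraries, with a term for each of the 6 groups and one for batch (17 residual degrees of freedom, common biological coefficient of variation 0.404). The p-values were adjusted by Benjamini-Hochberg over all 17824 genes tested and called under 0.05. The 1029 genes without a symbol were kept in the tests. CPM is the count relative to the TMM-scaled library total, and log2 CPM uses a prior count of 2. SE is the log2 fold change divided by the root of its F statistic, and 95% intervals use the t distribution with 17 degrees of freedom. Values are mean ± SD of 4 libraries.

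Alternatives were DESeq2 1.42.0, limma 3.58.1 (voom with quality weights, and on the deposited log2 FPKM), other filters, scalings and batch terms, each batch alone, and leaving out each library. The fits with a batch term in each group and with the adipocyte covariate were added after seeing the data. So were those without the libraries with epithelial markers and without both low control females. The test script was checked on counts drawn with known changes. Totals were 8345575 to 31022845 counts, and intervals from counts cover counting error only. The members and lists were chosen with earlier results of these data known. All 10 members are described in every comparison. Of each list the called genes are named, at most 4 per comparison by smallest adjusted p, and the 3 genes nearest to each member by likeness were found.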

Additional observations from a re-analysis of the deposited data

Results flagged for a closer look

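Lipe, the gene of hormone-sensitive lipase, had 1432 CPM in PpargFoxp3cre male replicate 4, against 1977 to 2048 CPM in the other 3 libraries of that group. The gap to its nearest neighbour was 0.884 of the group's range. Of the 54 groups of 4 values checked in this way (9 genes in 6 groups), this was the only one past the critical value of Dixon's test, and chance alone gives about 1 in 20 groups. The same library had 218 CPM of summed epithelial markers, the highest sum of its group, and 7 of its 9 members were under their 24-library mean.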

How the results depend on the processing

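The number of members called moved with the fit. In control males against control females, 3 by edgeR, it was 1 with no batch term, 0 in a fit to the groups compared, 7 in batch 1 alone, 1 in batch 2 alone, 7 with libraries of 1 title number summed, 7 with a batch term in each group, 5 with the adipocyte covariate, 1 without both low control females and 1 to 6 with 1 library left out. In TbetFoxp3cre against control females, 0 by edgeR, it was 1 by DESeq2 and with title numbers summed, and 2 in batch 1 alone, by limma on log2 FPKM, with a batch term in each group and with the adipocyte covariate. In PpargFoxp3cre males against females it was 1 by DESeq2, in batch 1 alone, by voom and with a batch term in each group, and 2 with the adipocyte covariate. In TbetFoxp3cre males against females it was 1 with title numbers summed (Mgll, higher) and 1 with the adipocyte covariate (Cidec, lower). For the TbetFoxp3cre effect in males minus that in females it was 2 with a batch term in each group and 1 with the covariate. In batch 2 against batch 1, 2 by edgeR, it was 5 by voom, 6 with the covariate and 1 to 3 with 1 library left out. The cause was not tested. The share of all genes called moved with the fit too. In control males against control females it was 27.2% in the main fit, 24.9% with the adipocyte covariate and 29.1% without control female replicate 2. In batch 1 alone 16.2% of all genes were called higher. For summed title numbers and a batch term in each group that share is not given here. Those counts are therefore not read as results about the members. Control males against control females reversed in batch 2 alone for Lipe (-0.035), Pnpla2 (-0.53), Abhd5 (-0.44), Plin1 (-0.18) and Plin2 (-0.13), and for Adrb3 in batch 1 alone (0.20). Calls were 0 under all settings run in both male knockouts, in PpargFoxp3cre females and between the knockouts within a sex.

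With a replicate block in place of batch, 2 members were called in control males against control females, Plin4 and Cidec, and Mgll was at 1.05 (edgeR adjusted p 0.0519). Deviations of the 60 same-numbered pairs correlated at -0.18 to 0.70. With batch removed they ran from -0.64 to 0.59, the median was -0.09, and 13 of 60 were over 0.1. The 60 pairs of 1 batch with other numbers had a median of -0.11, with 12 over 0.1. Same-numbered pairs were thus about as alike as other pairs of a batch. All these pairs cross groups, so they cannot show whether libraries of 1 title number in a group come from 1 animal.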
